A study of Mus musculus with 40 samples.

Results

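The genes described here encode the co-receptors, adaptors and IRAK kinases that act with the LPS receptor TLR4. They were chosen by name, and 10 of the 27179 genes in the expression table carried a listed symbol: Cd14, Ly96, Myd88, Tirap, Ticam1, Ticam2, Irak4, Irak2, Irak3 and Traf6. Bone marrow-derived macrophages (BMDMs) were grown from adult male WT mice and from mice with a whole-body deletion of Cpeb4 (Cpeb4-/-), an RNA-binding protein that acts on polyadenylation, on a mixed C57BL/6J and 129 strain background. Cells had matured in L-cell conditioned medium and were left untreated (0 hr) or given 10 ng/ml LPS for 1, 3, 6 or 9 hr before poly(A) RNA was sequenced. Each of 4 mice per genotype supplied all 5 times, which makes 40 libraries in 2 batches of 20. No cage held mice of both genotypes, so cage and genotype cannot be told apart. The animals were separate, so the spread given below is between mice.

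LPS is handed by CD14 to the complex of TLR4 and MD-2, the product of Ly96. At the plasma membrane TIRAP brings in MyD88, on which IRAK4 and IRAK2 assemble and activate TRAF6, and the signal runs on to NF-kB and the MAP kinases. From endosomes, TRAM (Ticam2) and TRIF (Ticam1) drive a second arm that leads to type I interferon. IRAK-M, the product of Irak3, is known in macrophages as a brake on this signalling that appears after LPS.

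Values are the submitters' regularised log values (rlog), a log2 scale of library-normalised counts that pulls low values together, so a difference of 1 is a doubling and differences of weakly expressed genes are understated. The table holds no counts, so read depth is unknown. A difference was called at an adjusted p under 0.05 from limma with Benjamini-Hochberg adjustment over all genes tested, 13008 to 13118 in each comparison, and all 10 members passed the filter on low values. Replicate libraries correlated at 0.992 to 0.998 across genes, and no pair was identical. The macrophage identity of the cells was visible in 7 of 7 macrophage markers (Adgre1, Csf1r, Itgam, Cd68, Mertk, Fcgr1 and Lyz2), with every library at 8.89 or above for each of them. Of 29 markers of other blood and connective tissue cells, 24 stayed below 5 in every library (Lck, Xcr1, S100a8, S100a9 and Camp did not), with Cd3e at 0.87 or below and Ly6g at -2.27 or below. The Cpeb4 row, for which the table does not say where in the gene the reads fell, separated the libraries labelled Cpeb4-/- from WT at 6 hr only (9.18 ± 0.45 against 10.45 ± 0.26, SD, n = 4, adjusted p = 0.0011). At 0, 1, 3 and 9 hr its ranges overlapped, and at 1 hr its mean was higher in Cpeb4-/- (9.01) than in WT (8.64). Within these RNA values every genotype difference given below therefore rests on the labels. The study examined CPEB4 protein in WT and Cpeb4-/- BMDMs by immunoblot, which is not part of these values.

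Per exon length, Cd14 was by far the most abundant member in untreated WT cells. On a scale of rlog minus log2 of the exon length in kb, it stood at 14.33 ± 0.08 (SD, n = 4), and Myd88 came next at 10.51 ± 0.11. Ly96 (9.08 ± 0.06), Irak2 (8.86 ± 0.06), Irak3 (8.36 ± 0.11), Ticam1 (7.99 ± 0.09) and Irak4 (7.76 ± 0.20) followed. Ticam2 (7.06 ± 0.09), Tirap (6.87 ± 0.06) and Traf6 (6.59 ± 0.13) were the lowest. Neighbours in this order were further apart than the larger of their SDs, by little for Ticam1 and Irak4. Tlr4 itself was at 8.04 ± 0.13 and Irak1, the kinase that IRAK4 acts on, at 9.39 ± 0.06. After 6 hr of LPS Irak2 (10.92 ± 0.03) and Irak3 (10.84 ± 0.05) had passed Ly96 (10.12 ± 0.03) and Irak1 (8.89 ± 0.04) on the same per-length scale.

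**Figure D1:**
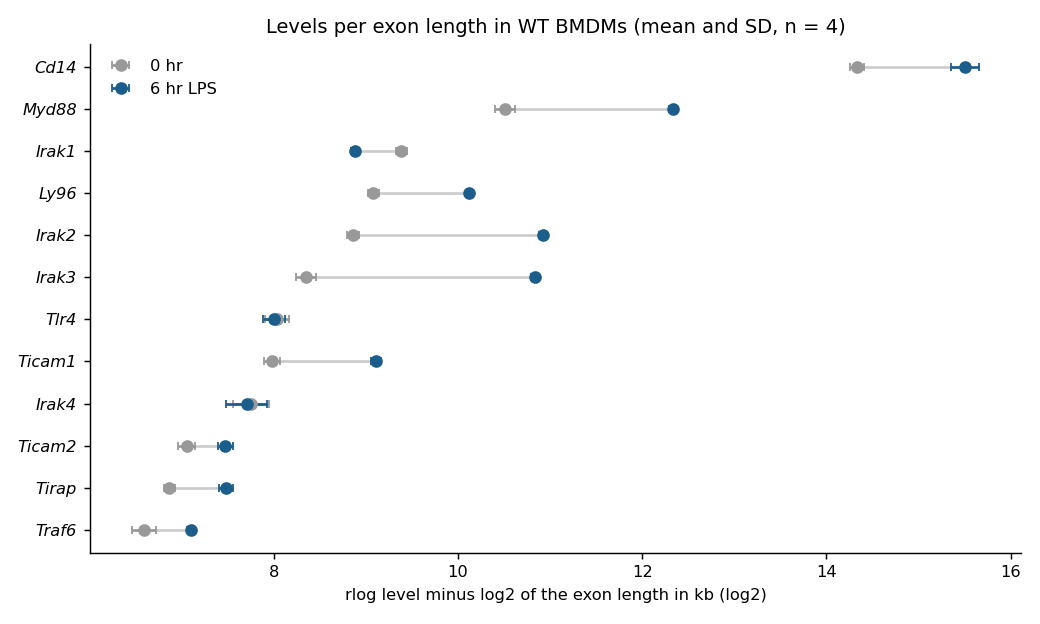
Level per exon length of the 10 members, Tlr4 and Irak1 in WT BMDMs at 0 hr (grey) and after 6 hr of LPS (blue); the horizontal axis is the rlog level minus log2 of the exon length in kb, and points and bars are the mean and SD of 4 mice. Cd14 is highest at both times, Irak2 and Irak3 move furthest to the right, and Irak1 moves to the left.

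LPS raised most of the set in WT BMDMs. After 1 hr 5 of 10 members were higher and 1 was lower, where 17.3% of all genes tested were called higher and 16.6% lower. After quantile normalisation the calls over all genes at 1 hr were 1895 higher and 3098 lower, in place of 2264 and 2179, and those of the members stayed at 5 and 1. After 3 hr the calls were 9 up and 1 down (32.5% and 35.3% of all genes). After 6 hr they were 9 up and 0 down (38.7% and 39.2%), and after 9 hr 8 up and 0 down (35.9% and 35.6%). The median difference of the 10 from 0 hr was 0.34, 0.69, 1.08 and 0.75 at 1, 3, 6 and 9 hr, beside 0.02, -0.02, -0.02 and -0.00 over all genes tested. Cpeb4-/- BMDMs gave 6 up and 1 down after 1 hr (23.8% and 20% of all genes) and 9 up and 1 down after 3 hr (34.4% and 36.9%). After 6 hr they gave 9 up and 0 down (39% and 40.1%), and after 9 hr 10 up (36.4%, with 36.4% down). The members did not keep 1 course, and each group of genes is taken in turn.

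**Figure D2:**
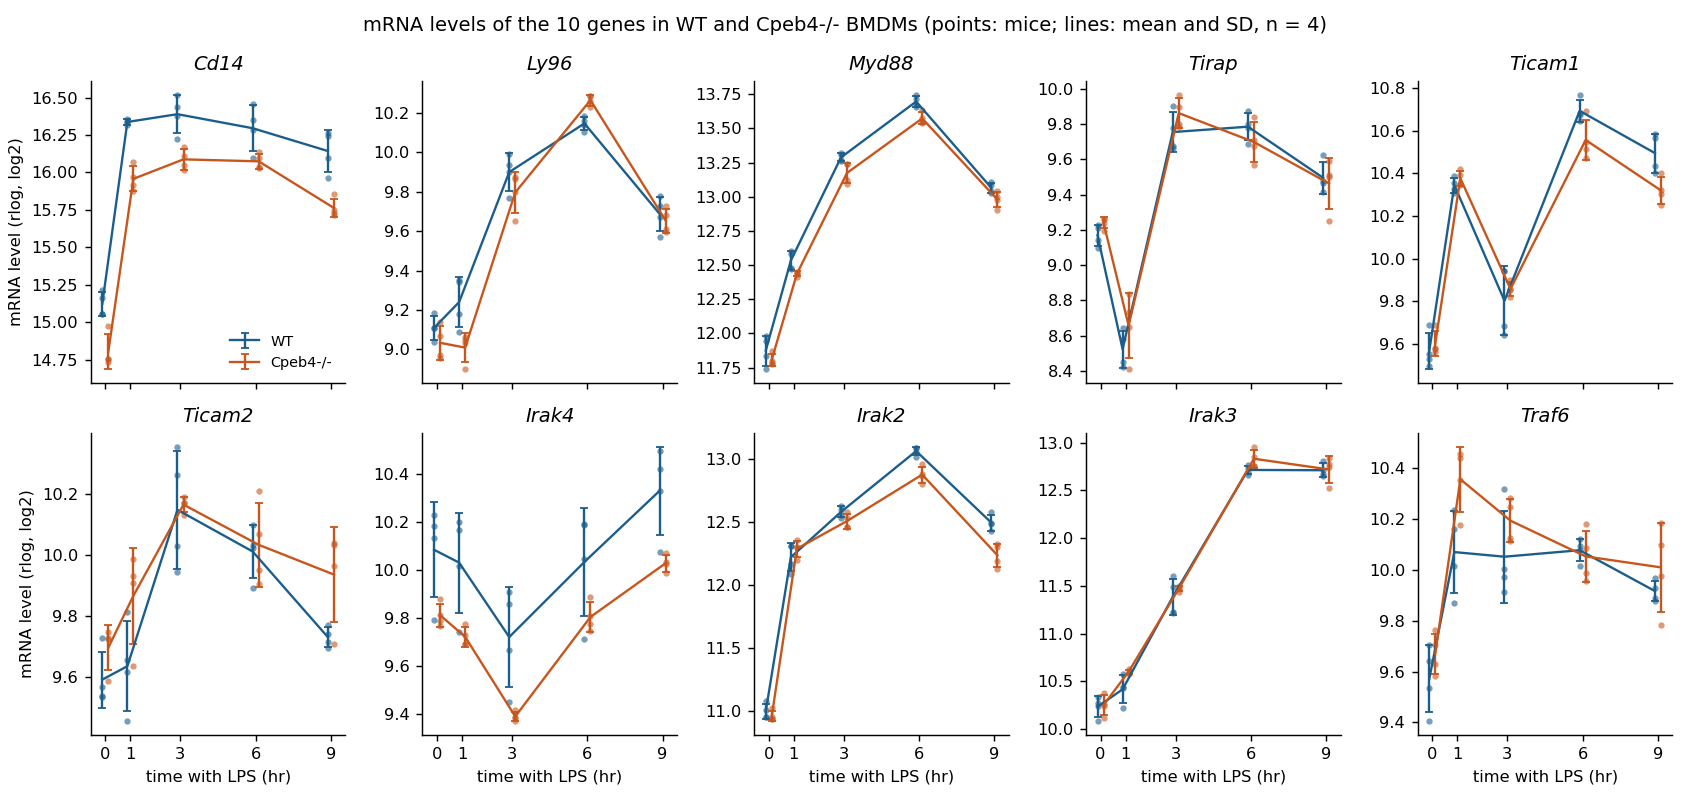
rlog mRNA level (vertical axis, log2, scaled for each gene) against time with LPS in hr for the 10 members in WT (blue) and Cpeb4-/- (orange) BMDMs; points are mice and lines join the means with SD bars, n = 4. Irak2, Irak3 and Myd88 show the largest rises, Tirap dips at 1 hr, Ticam1 dips at 3 hr after a first rise, and Irak4 is lowest at 3 hr and highest at 9 hr.

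Of the co-receptors, Cd14 responded within 1 hr and was still above untreated cells at 9 hr, while Ly96 responded later. Cd14, a protein anchored in the membrane that captures LPS, was at 15.06, 15.16, 15.21 and 15.06 in untreated WT mice 25, 69, 87 and 88, and at 16.31, 16.34, 16.36 and 16.34 in the same mice at 1 hr. No WT library at any time with LPS overlapped the untreated ones, and the difference was 1.21 ± 0.08 (SE, adjusted p = 8.4e-11) after 1 hr, with 1.27 ± 0.08 after 3 hr and 1.02 ± 0.08 after 9 hr. Between 1 and 3 hr and between 3 and 6 hr the WT level differed by 0.05 and -0.09, and neither passed the test on the deposited scale. From 6 to 9 hr the WT difference of -0.15 missed the threshold without the mouse as a block (adjusted p = 0.11) and passed it with the block (adjusted p = 0.037). In Cpeb4-/- cells it fell by 0.31 over that interval (SE 0.06, adjusted p = 0.00011), and its difference of 0.13 from 1 to 3 hr was not called (adjusted p = 0.052) but was with the block (adjusted p = 0.036). The size of the Cd14 rise depended on the scaling. After quantile normalisation it was 0.73, 0.62, 0.34 and 0.46 in WT cells at 1, 3, 6 and 9 hr, still called at each time, and the WT difference from 3 to 6 hr was -0.28 and called (adjusted p = 0.004). Ly96, which holds the lipid part of LPS, was at 9.04, 9.11, 9.11 and 9.18 in untreated WT cells and at 9.09, 9.18, 9.34 and 9.35 at 1 hr, and these ranges overlapped. It then rose by 0.66 ± 0.06 between 1 and 3 hr (adjusted p = 1.6e-08) and by a further 0.25 ± 0.06 to 6 hr, when the 4 mice lay between 10.10 and 10.18. By 9 hr it had fallen by 0.46 from its 6 hr level (SE 0.06, adjusted p = 4.5e-06). Its highest value came at 6 hr in 8 of 8 mice of both genotypes.

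The MyD88 arm adaptors took separate courses. Myd88 rose at each step up to 6 hr and then fell: the WT means were 11.87, 12.53, 13.29, 13.70 and 13.06 at 0, 1, 3, 6 and 9 hr, with SDs of at most 0.11. Its difference from 0 hr reached 1.82 ± 0.05 at 6 hr (adjusted p = 6.5e-18), which is 3.53-fold on the linear scale, and was 1.08 after quantile normalisation and still called. Tirap, the bridge between the receptor and MyD88, moved down first. It was at 9.22, 9.14, 9.10 and 9.21 in untreated WT mice 25, 69, 87 and 88 and at 8.58, 8.64, 8.42 and 8.45 at 1 hr. The drop was seen in 8 of 8 mice (WT -0.65 ± 0.07, adjusted p = 1.1e-07; Cpeb4-/- -0.58 ± 0.08, adjusted p = 5.6e-06). By 3 hr Tirap had risen by 1.23 ± 0.07 from the 1 hr level in WT (adjusted p = 1.6e-12), to 0.59 ± 0.07 above untreated cells, and in WT it fell by 0.29 between 6 and 9 hr (adjusted p = 0.001). In Cpeb4-/- cells Tirap was 0.22 ± 0.08 above untreated cells at 9 hr (adjusted p = 0.019), a call lost without mouse 3 or mouse 62 (0.19 in both cases, adjusted p = 0.11), and its 6 to 9 hr call (-0.24) was lost without mouse 55 (-0.20, adjusted p = 0.094). Without mouse 55 its difference of -0.23 from 3 to 6 hr was called.

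Among the adaptors of the TRIF arm, Ticam1 rose in 2 steps with a dip between them. In WT mice 25, 69, 87 and 88 it was at 9.55, 9.50, 9.53 and 9.69 untreated and at 10.32, 10.39, 10.31 and 10.36 at 1 hr. At 3 hr the same mice stood at 9.64, 9.94, 9.68 and 9.94, and at 6 hr at 10.64, 10.77, 10.68 and 10.68. The level fell from 1 to 3 hr by 0.54 (SE 0.07, adjusted p = 6.4e-07) and rose from 3 to 6 hr by 0.89 ± 0.07 (adjusted p = 4.6e-10). Even at 3 hr Ticam1 was 0.24 ± 0.07 above untreated WT cells (adjusted p = 0.0041), though not without mouse 69 (0.17, adjusted p = 0.07), and its WT fall of 0.20 from 6 to 9 hr was not called without mouse 25 (adjusted p = 0.072) or mouse 87 (0.078) or after quantile normalisation (-0.11). The dip was present in 8 of 8 mice, in which the change from 1 to 3 hr ran from -0.68 to -0.41, and the later rise ran from 0.58 to 1.00. Cpeb4-/- cells showed steps of -0.52 ± 0.05 and 0.70 ± 0.05 over the same intervals. Ticam2, which tethers TRIF to the receptor, changed less: it was 0.56 ± 0.08 above untreated WT cells after 3 hr (adjusted p = 5.3e-06), with 0.42 ± 0.08 after 6 hr and 0.14 ± 0.08 after 9 hr, the last of which missed the threshold (adjusted p = 0.14). In Cpeb4-/- cells its 9 hr difference of 0.24 ± 0.08 was called (adjusted p = 0.011), though without mouse 3 or mouse 55 it was 0.22 or 0.17 and was not. Its 1 hr difference in Cpeb4-/- cells (0.17) missed the threshold (adjusted p = 0.093) but passed it with the mouse as a block (adjusted p = 0.045) and without mouse 2 (0.26, adjusted p = 0.0042).

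The 3 kinases followed 3 courses. Irak2, the kinase that sustains signalling after the first wave, rose from 11.00 ± 0.06 (SD, n = 4) in untreated WT cells to 12.22 ± 0.11 at 1 hr and 13.06 ± 0.03 at 6 hr, and fell to 12.49 ± 0.06 at 9 hr. Its 6 hr difference was 2.06 ± 0.05 (SE, adjusted p = 1.5e-18), or 4.17-fold. Irak3, which lacks the kinase activity of its relatives, was slow and lasting. WT mice 25, 69, 87 and 88 had levels of 10.27, 10.24, 10.08 and 10.34 untreated, and of 10.43, 10.57, 10.22 and 10.44 after 1 hr. The same mice had 11.23, 11.49, 11.22 and 11.60 after 3 hr, 12.77, 12.66, 12.73 and 12.70 after 6 hr, and 12.71, 12.65, 12.81 and 12.67 after 9 hr. The WT groups at 0 and 1 hr overlapped (0.18 ± 0.08, adjusted p = 0.093), whereas in Cpeb4-/- cells the 1 hr rise of 0.35 ± 0.06 was called (adjusted p = 7.5e-05). The difference between those genotype responses was itself 0.17 ± 0.10 and did not pass (adjusted p = 0.90). At 6 hr Irak3 was 2.48 ± 0.08 above untreated WT cells, 5.59-fold, which was the largest change in the set. Its level at 9 hr differed from that at 6 hr by -0.00 ± 0.08 in WT, while Irak2 and Myd88 fell by 0.57 and 0.63 over the same interval. After quantile normalisation that Irak3 difference was 0.21 and was called higher (adjusted p = 0.033), and in Cpeb4-/- cells a fall of 0.18 over that interval was called without mouse 3.

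Irak4, the kinase that starts the MyD88 arm, was the member below its untreated level at 3 hr. Its level was lowest at 3 hr and highest at 9 hr in 8 of 8 mice. The change from 0 to 3 hr lay between -0.50 and -0.32 in single mice, and that from 3 to 9 hr between 0.56 and 0.68. In Cpeb4-/- cells the fall to 3 hr was 0.42 (SE 0.04, adjusted p = 5.1e-09) and the level at 9 hr was 0.22 ± 0.04 above untreated cells (adjusted p = 5e-05). In WT cells the fall to 3 hr was 0.36 (SE 0.13, adjusted p = 0.019), and was not called without mouse 25 (adjusted p = 0.055) or mouse 88 (adjusted p = 0.12). The WT steps from 1 to 3 hr (-0.31) and from 3 to 6 hr (0.31) were called (adjusted p = 0.047 and 0.042), and neither was without mouse 25, 87 or 88 (highest adjusted p = 0.17), without a filter, without the trend or after quantile normalisation. The WT difference at 9 hr was 0.25 ± 0.13 (adjusted p = 0.098), with an adjusted p of 7.3e-06 with the mouse as a block, and that between 6 and 9 hr was 0.30 ± 0.13 (adjusted p = 0.064), with an adjusted p of 1.7e-06 under the block. Without mouse 69 both WT differences were called (0.23 and 0.27, adjusted p = 0.013 and 0.008). Traf6, the ligase on which the MyD88 arm converges, rose early and by little. It was 0.50 ± 0.08 above untreated WT cells at 1 hr (adjusted p = 8.1e-05) and 0.35 ± 0.08 at 9 hr, and no later step of its WT course was called. In Cpeb4-/- cells its steps from 1 to 3 hr (-0.16) and from 3 to 6 hr (-0.14) were not called, and with the mouse as a block both were (adjusted p = 0.025 and 0.049).

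**Figure D3:**
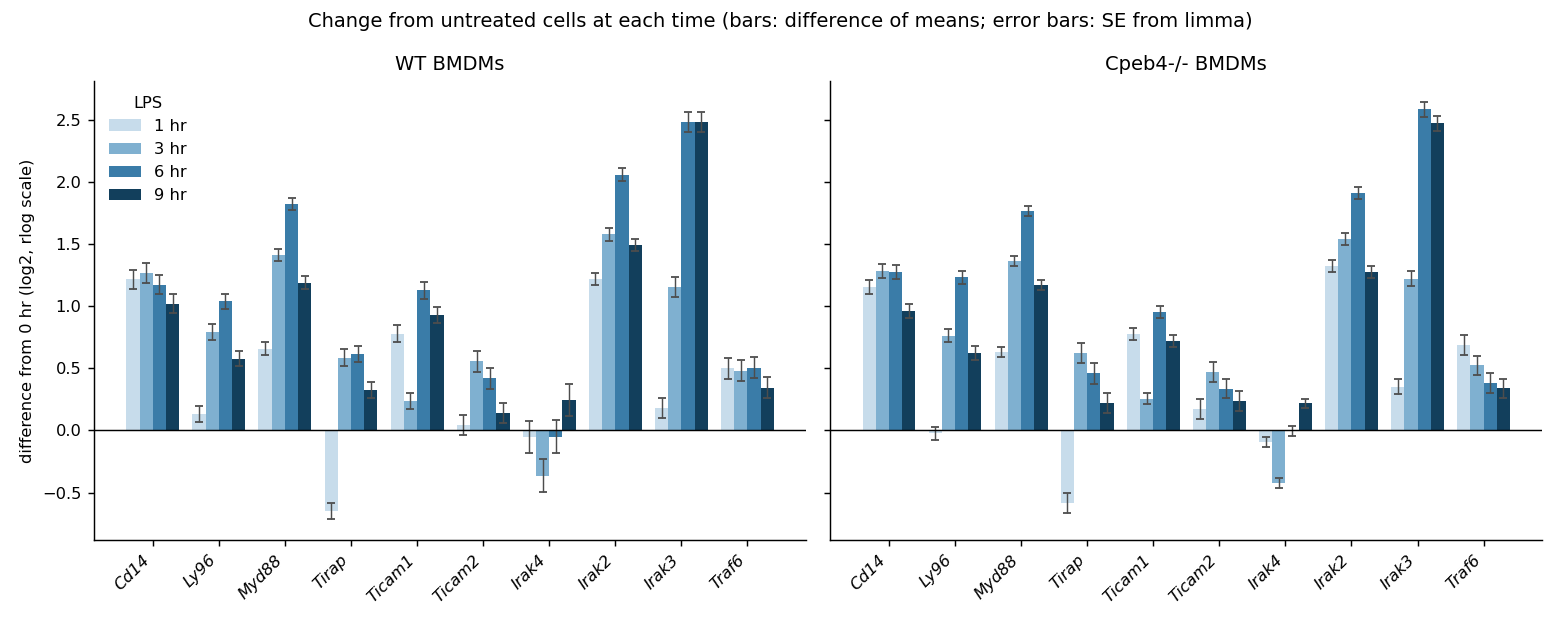
Difference from untreated cells (vertical axis, log2 on the rlog scale) of the 10 members at 1, 3, 6 and 9 hr of LPS, light to dark blue, in WT (left) and Cpeb4-/- (right) BMDMs; bars are differences of means over 4 mice and error bars are SEs from limma. The bars of Irak3 reach about the same height at 6 and 9 hr, those of Irak2 and Myd88 are lower at 9 hr than at 6 hr, and Tirap at 1 hr and Irak4 at 3 hr lie below 0.

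Step by step, WT cells had 6 members higher and 2 lower from 1 to 3 hr (28% of all genes were called higher and 32.1% lower), 6 higher and 0 lower from 3 to 6 hr (33.3% and 30.4%) and 6 lower from 6 to 9 hr (27.9%, with 23.5% higher). Cpeb4-/- cells had 6 higher and 2 lower (30.5% and 33.5%), 6 higher (32.4%, with 32.1% lower), and 6 lower with 1 higher (28% and 25.6%) over the same intervals, the single called rise from 6 to 9 hr being that of Irak4 (0.22 ± 0.04). These counts come from fits without the mouse as a block. In WT cells Irak4 also rose from 6 to 9 hr (0.30), which with all mice was called with the block and not without it. For Traf6 and Cd14, without Cpeb4-/- mouse 2, steps of -0.24 and 0.19 from 1 to 3 hr were called (adjusted p = 0.0067 and 0.011). Among the members, levels over the 40 libraries were closest between Ly96 and Myd88 (Pearson r = 0.939) and between Myd88 and Irak2 (r = 0.938), and furthest apart between Ticam2 and Irak4 (r = -0.584). These values describe libraries that share mice and times. Among 12951 other genes, the one most like each member over the same 40 libraries was Marcksl1 for Cd14 (r = 0.979), Pttg1 for Ly96 (0.982), Mapkapk2 for Myd88 (0.990), 4632415L05Rik for Tirap (0.969), Ppp1r18 for Ticam1 (0.957), Brwd3 for Ticam2 (0.943), Nt5m for Irak4 (0.837), Brd2 for Irak2 (0.987), Lox for Irak3 (0.992) and Chd2 for Traf6 (0.955).

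The promoters of the 3 members with the largest rises, Irak3, Irak2 and Myd88, are printed so that their sequences can be set beside those courses. A RefSeq table of build GRCm38.p6 held promoters for 7 of the 10 members: Traf6, Irak2, Tirap, Myd88, Irak3, Irak4 and Ticam1. Each spans 250 bases before and 50 after an annotated transcription start, given 5′ to 3′ on the gene's strand. Irak3 also had a promoter at chr10:120201548-120201847, for another start, which was searched but is not printed. Capitals mark a match to GAAANNGAAA, the paired element bound by interferon regulatory factors.
Myd88, chr9:119339969-119340268, minus strand: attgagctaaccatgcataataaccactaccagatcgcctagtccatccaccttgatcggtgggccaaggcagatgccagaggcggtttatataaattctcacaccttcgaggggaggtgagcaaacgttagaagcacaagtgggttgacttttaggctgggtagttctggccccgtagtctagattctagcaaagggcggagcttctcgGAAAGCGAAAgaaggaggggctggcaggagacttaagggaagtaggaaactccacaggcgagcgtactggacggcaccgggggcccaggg
Irak2, chr6:113638217-113638516, plus strand: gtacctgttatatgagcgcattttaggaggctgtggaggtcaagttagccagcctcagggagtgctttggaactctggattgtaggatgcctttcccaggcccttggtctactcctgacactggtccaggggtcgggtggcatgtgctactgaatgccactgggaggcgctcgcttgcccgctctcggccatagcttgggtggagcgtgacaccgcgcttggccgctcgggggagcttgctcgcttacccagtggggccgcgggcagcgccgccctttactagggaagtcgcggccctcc
Irak3, chr10:120202081-120202380, minus strand: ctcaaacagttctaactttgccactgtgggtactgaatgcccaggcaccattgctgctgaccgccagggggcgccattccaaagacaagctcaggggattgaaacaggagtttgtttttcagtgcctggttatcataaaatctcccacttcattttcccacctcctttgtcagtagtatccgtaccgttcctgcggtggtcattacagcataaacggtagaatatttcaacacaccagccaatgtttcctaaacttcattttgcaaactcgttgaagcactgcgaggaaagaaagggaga

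Myd88 had a single match, GAAAGCGAAA, which begins 40 bases before the start site. Both strands were searched for GAAANNGAAA, for the AP-1 element TGANTCA and for the 10-base NF-kB consensus, and no other match was found in the 9 promoters of these 7 genes. Of the 32851 promoters searched, none of them on chromosome 18, 3.44% held GAAANNGAAA, 7.81% TGANTCA and 8.46% the NF-kB consensus. The genes themselves lie at chr2:101678429-101701669 (Traf6, plus strand), chr6:113638467-113695026 (Irak2, plus), chr9:35184551-35200291 (Tirap, minus), chr9:119335934-119341411 (Myd88, minus), chr10:120141648-120202130 (Irak3, minus), chr15:94543643-94581815 (Irak4, plus), chr17:56269319-56276786 (Ticam1, minus) and chr1:16688051-16709611 (Ly96, plus) in GENCODE M21 on the same build, which is the mm10 build used for the table. Cd14 and Ticam2 are both on chromosome 18.

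Between genotypes, at most 3 of the 10 members were called at any time, and all of these were lower in Cpeb4-/- cells. Cd14 was called at 0, 1, 3 and 9 hr, Irak2 at 6 and 9 hr, and Irak4 at 9 hr. That is 1 member at 0, 1, 3 and 6 hr and 3 at 9 hr, where 0.565%, 0.938%, 1.87%, 9.92% and 3.22% of all genes tested were called lower at 0, 1, 3, 6 and 9 hr, and 0.741%, 0.976%, 1.81%, 6.4% and 4.69% higher. After quantile normalisation the 6 hr calls over all genes were 1025 higher and 986 lower, in place of 835 and 1294. The ranges of the 4 WT and 4 Cpeb4-/- mice did not overlap for 1, 4, 3, 3 and 3 members at these times, beside 10.5%, 15.7%, 13.6%, 20.2% and 16.9% of all genes. The median difference of the 10 members was -0.01, 0.05, -0.03, -0.11 and -0.06, beside 0.01, 0.02, 0.01, -0.02 and 0.00 over all genes.

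**Figure D4:**
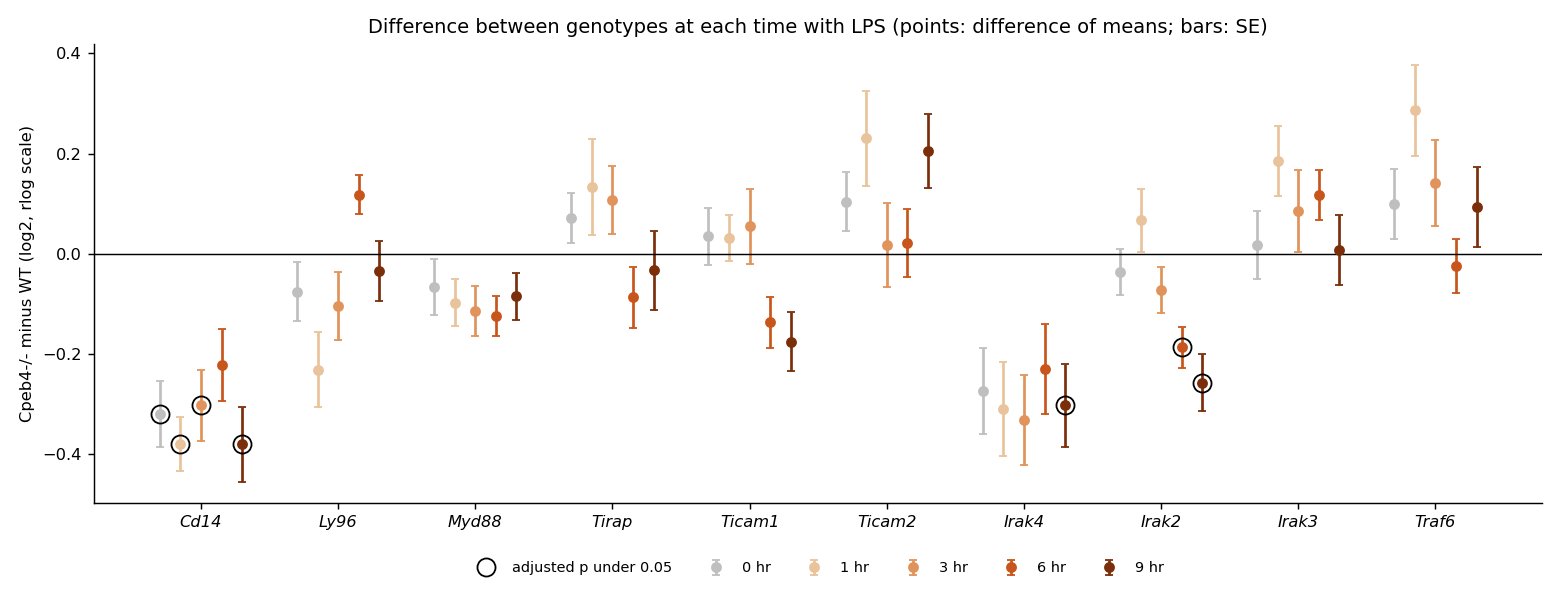
Cpeb4-/- minus WT difference in rlog level (vertical axis, log2) of each member at 0, 1, 3, 6 and 9 hr of LPS, grey to dark brown; points are differences of means over 4 mice per genotype, bars are SEs from limma, and black rings mark an adjusted p under 0.05. All points of Cd14, Irak4 and Myd88 lie below 0, the Irak2 points are lower at 6 and 9 hr than at the earlier times, and 7 points carry a ring.

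Cd14 was lower in Cpeb4-/- BMDMs from the start. Untreated Cpeb4-/- mice 2, 3, 55 and 62 were at 14.75, 14.75, 14.97 and 14.73, all below the untreated WT mice, of which the lowest was at 15.06. At 1 hr they were at 16.07, 15.92, 15.97 and 15.87 beside a lowest WT value of 16.31. In untreated cells the Cpeb4-/- minus WT difference was -0.32 ± 0.07 (SE, adjusted p = 0.046). With LPS for 1, 3, 6 and 9 hr it was -0.38 ± 0.05, -0.30 ± 0.07, -0.22 ± 0.07 and -0.38 ± 0.07, with adjusted p of 0.013, 0.046, 0.054 and 0.015. This is 19.9%, 23.1%, 18.9%, 14.2% and 23.2% lower on the linear scale at the 5 times. At 6 hr WT mouse 88 (16.09) lay within the Cpeb4-/- range of 16.03 to 16.13, and without it the difference was -0.29 (adjusted p = 0.011). Within batch 1 the difference ran from -0.43 to -0.21 over the 5 times, and within batch 2 from -0.38 to -0.23. The Cd14 calls lay near the threshold: that at 0 hr was lost without any 1 mouse except Cpeb4-/- mouse 55 (highest adjusted p = 0.15), that at 3 hr without any 1 mouse except WT mouse 88 (highest 0.14), that at 1 hr without Cpeb4-/- mouse 3, 55 or 62 (highest 0.059), and that at 9 hr without WT mouse 25 (0.053). With all 40 libraries in 1 fit and the mouse as a block, Cd14 was called at each time (adjusted p from 0.0001 at 9 hr to 0.02 at 6 hr). That fit takes its spread from all 5 libraries of each mouse, with 1 correlation for all genes, though genotypes differ only between mice. Over all genes it called 414, 4323, 1393, 2137 and 2378 of 13103 at the 5 times. The main fits called 171, 251, 481, 2129 and 1029. The response of Cd14 to LPS did not differ detectably between genotypes: the difference of differences from 0 hr ran from -0.06 to 0.10 with SEs of 0.10, and the lowest adjusted p was 0.69. After quantile normalisation the Cd14 difference was -0.16, -0.10 and -0.20 at 3, 6 and 9 hr, and none of these was called (adjusted p = 0.15, 0.5 and 0.09).

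The summed linear level of the 7 macrophage markers, in which Lyz2 is the most abundant (mean rlog 18.24, beside 15.94 for Adgre1, the next), was lower in Cpeb4-/- cells along with Cd14. It lay between 18.55 and 18.98 (log2 of the sum) in the 20 Cpeb4-/- libraries and between 18.88 and 19.32 in the 20 WT libraries, and the genotypes did not overlap at any time. For single genes, 10.5% (0 hr) to 20.2% (6 hr) of all tested had no overlap. Of the single markers none was called at 0 or 1 hr, 1 of 7 was lower in Cpeb4-/- cells at 3 hr (Lyz2), 4 at 6 hr (Csf1r, Cd68, Fcgr1 and Lyz2) and 2 at 9 hr (Cd68 and Fcgr1). Of all genes tested 1.87%, 9.92% and 3.22% were called lower at 3, 6 and 9 hr. Among markers of other cells, Zbtb46, of dendritic cells, was higher in Cpeb4-/- cells at 3 hr (1.10 ± 0.15), and Xcr1, also of dendritic cells, was lower at 6 hr (-0.49 ± 0.11). Lck, of T cells, was lower at 6 hr (-0.39 ± 0.11) and 9 hr (-0.55 ± 0.14), while Cd3e, Cd3d and Cd3g were too low to test. The NK cell markers were also too low to test. Their summed level was low but higher in Cpeb4-/- cells at 0 hr (2.80 to 3.16, beside 1.54 to 1.70 in WT). It had no overlap at 1 and 3 hr either, and overlapped at 6 and 9 hr. The part of all these markers in the Cd14 and Irak2 differences was not tested. In bulk samples fewer cells of a type and less RNA per cell cannot be told apart.

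Irak2 was lower in Cpeb4-/- cells late in the course. At 9 hr WT mice 25, 69, 87 and 88 were at 12.48, 12.58, 12.43 and 12.49 and Cpeb4-/- mice 2, 3, 55 and 62 at 12.13, 12.32, 12.30 and 12.19, with no overlap. The difference was -0.19 ± 0.04 at 6 hr (adjusted p = 0.01) and -0.26 ± 0.06 at 9 hr (adjusted p = 0.024), after -0.04, 0.07 and -0.07 at 0, 1 and 3 hr, none of which passed. It was -0.22 and -0.15 within batches 1 and 2 at 6 hr, and -0.23 and -0.29 at 9 hr. The 9 hr call was lost without any 1 WT mouse or without Cpeb4-/- mouse 62, with adjusted p up to 0.074. After quantile normalisation the 6 hr difference was -0.10 (adjusted p = 0.0503). Set against the 0 hr difference, the 9 hr one was -0.22 ± 0.07 and missed the threshold (adjusted p = 0.092), and with the mouse as a block it passed (adjusted p = 0.021). No other member passed this test at any time in either fit. Among the 10 members 0, 0, 3 and 2 had an unadjusted p under 0.05 for the change in genotype difference from 0 hr to 1, 3, 6 and 9 hr, and 0 were called by limma. Of all genes 0%, 0.0763%, 0.901% and 0.992% were called higher in this test at 1, 3, 6 and 9 hr, and 0.00763%, 0.13%, 2.04% and 0.771% lower.

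Irak4 split the WT mice. Averaged over the 5 times, WT mice 25, 87 and 88 were at 10.16, 10.20 and 10.04, WT mouse 69 was at 9.75, and Cpeb4-/- mice 2, 3, 55 and 62 were at 9.77, 9.75, 9.74 and 9.74. Mouse 69 lay within, just above or just below the Cpeb4-/- range at every time. It was at 9.79, 9.74, 9.45, 9.71 and 10.07 at 0, 1, 3, 6 and 9 hr, where the highest Cpeb4-/- values were 9.88, 9.77, 9.41, 9.89 and 10.07. The lowest of the other WT mice were at 10.13, 10.02, 9.67, 10.05 and 10.33. With all mice the genotype difference was -0.27, -0.31, -0.33, -0.23 and -0.30 at the 5 times, with SEs of 0.08 to 0.09, and only that at 9 hr was called (adjusted p = 0.049). Without mouse 69 it was -0.37, -0.41, -0.42, -0.34 and -0.39, with adjusted p of 0.011, 0.016, 0.015, 0.0041 and 0.011. Mouse 69 was singled out by its low Irak4 values, so leaving it out had to widen the difference. These adjusted p are therefore no separate test of it. Over all genes 163, 2440, 418, 1520 and 457 were called without this mouse. With the mouse as a block in a fit of all 40 libraries, all 5 were called (adjusted p from 0.004 at 3 hr to 0.038 at 0 hr). That fit takes its spread from all libraries of each mouse, with 1 correlation for all genes. The Irak4 gap of mouse 69 to the other WT mice recurred at every time. These adjusted p may therefore be too small for Irak4, and the 5 calls are not 5 separate results. The 9 hr call was lost without any other 1 of the 8 mice except Cpeb4-/- mouse 2, with adjusted p up to 0.14. It was also lost with no filter, without the trend and after quantile normalisation. Mice 69 and 25 each had a cage with no other sequenced mouse, while mice 87 and 88 shared one. For Cd14 and Irak2 mouse 69 lay among the other WT mice or above them.

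**Figure D5:**
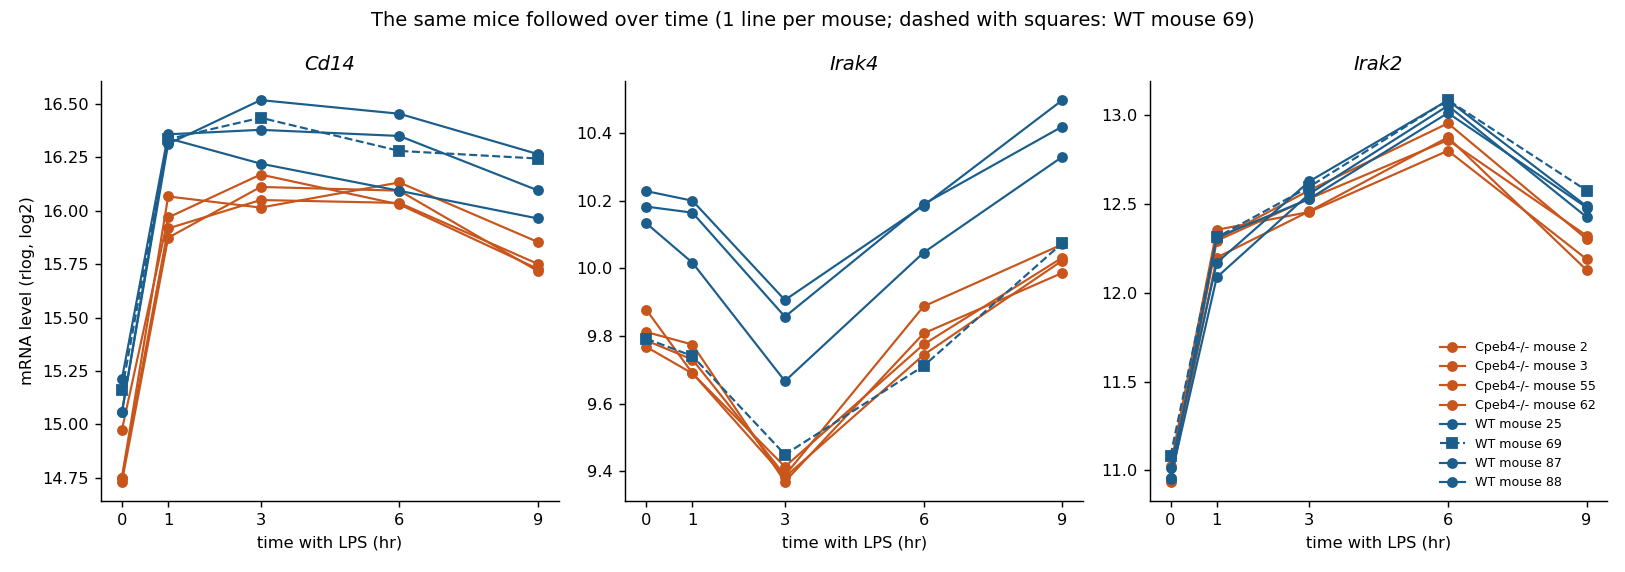
rlog mRNA level (vertical axis, log2) of Cd14, Irak4 and Irak2 against time with LPS in hr, with 1 line per mouse; WT mice are blue, Cpeb4-/- mice orange, and WT mouse 69 is dashed with squares. In Irak4 the dashed line runs with the 4 Cpeb4-/- mice at all times while the other 3 WT mice lie above, and in Cd14 and Irak2 it runs with the WT mice.

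The remaining 7 members were not called between genotypes at any time. Myd88 was lower in Cpeb4-/- cells by mean at all 5 times, with differences of -0.12 to -0.07, and its ranges did not overlap at 1, 3 and 6 hr. Ly96 was at 8.90 to 9.06 in Cpeb4-/- and 9.09 to 9.35 in WT mice at 1 hr, and at 10.23 to 10.29 and 10.10 to 10.18 at 6 hr, so that it lay below WT at the first time (-0.23, adjusted p = 0.09) and above it at the second (0.12, adjusted p = 0.059). Irak3 was above WT without overlap at 1 hr (0.19, adjusted p = 0.11). Traf6 was at 0.29 ± 0.09 (adjusted p = 0.088) at 1 hr. Ticam1 stood at -0.14 ± 0.05 and -0.18 ± 0.06 at 6 and 9 hr (adjusted p = 0.095 and 0.093). With the mouse as a block over all 40 libraries, Ly96 (adjusted p = 0.0064), Traf6 (0.011) and Ticam2 (0.032) were called at 1 hr, Myd88 at 6 hr (0.043) and Ticam1 at 9 hr (adjusted p = 0.026). At 1 hr that fit called 4323 of 13103 genes, in place of 251 of 13118 in the main fit. At 6 and 9 hr it called 2137 and 2378 genes, in place of 2129 and 1029. Its spread comes from all libraries of each mouse, though genotypes differ only between mice. For Tirap the genotype difference lay between -0.09 and 0.13 and stayed uncalled in both fits. Ly96 at 6 hr was called with no filter (adjusted p = 0.029) and with a mean rlog of at least 5 (0.04997), and Irak3 at 6 hr after quantile normalisation (0.17, adjusted p = 0.017), both higher in Cpeb4-/- cells. Single mice also decided some calls here: Irak3 at 1 hr was called without WT mouse 69 (0.24), Traf6 at 3 hr without WT mouse 88 (0.23), Myd88 and Ticam1 at 6 hr without Cpeb4-/- mouse 55 (-0.14 and -0.18), and Ticam1, Ticam2 and Traf6 at 9 hr without Cpeb4-/- mouse 2 (-0.18, 0.28 and 0.17). Leaving out the same mice also raised the calls over all genes. They went from 251 to 2440 at 1 hr and from 481 to 2584 at 3 hr. At 6 hr they went from 2129 to 2331, and at 9 hr from 1029 to 4575 of 13005 tested.

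Around the 10 members, 36 other genes of TLR4 signalling were followed. At 3 hr 18 of 36 were higher and 11 lower in WT cells, where 32.5% of all genes tested were higher and 35.3% lower. At 9 hr 23 were higher and 8 lower, where the shares of all genes were 35.9% and 35.6%. Their median differences were 0.23 and 0.31, beside -0.02 and -0.00 over all genes. The largest rises at 3 hr were those of Peli1, a ubiquitin ligase of the IRAK complex (2.83 ± 0.06), Tnip1, a partner of A20 (2.10 ± 0.05), and Ikbke, a kinase of the TRIF arm (1.64 ± 0.06). At 9 hr Tnip1 (1.94 ± 0.05), Ikbke (1.69 ± 0.06) and Pik3ap1, an adaptor that links TLR4 to PI3K (1.50 ± 0.15), led. The largest falls were those of Tab1 (-1.37 ± 0.06), Sigirr (-1.15 ± 0.17) and Sarm1 (-0.82 ± 0.15) at 3 hr, and those of Il1rl1 (-3.34 ± 0.12), Peli2 (-2.38 ± 0.11) and Sigirr (-1.86 ± 0.17) at 9 hr. Sigirr and Sarm1 are known as inhibitors of TLR signalling, and Il1rl1 is the IL-33 receptor. In the TRIF arm 8 of 9 genes were higher at 9 hr and none lower, and of 7 negative regulators 4 were higher and 3 lower, read against the same 35.9% and 35.6% of all genes.

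Tlr4 and Irak1 did not rise with their partners. Tlr4 was at 10.51 ± 0.13 (SD, n = 4) in untreated WT cells and at 10.07 ± 0.10, 10.27 ± 0.21, 10.48 ± 0.12 and 10.17 ± 0.13 at 1, 3, 6 and 9 hr, lower at 1, 3 and 9 hr (adjusted p = 0.00084, 0.032 and 0.0032). Irak1 fell to 11.12 ± 0.04 at 6 hr from 11.62 ± 0.06 (difference -0.50 ± 0.04), while Irak2 and Irak3 rose. Lbp, a serum carrier of LPS made in liver, was close to the filter at 2.08 ± 0.26 untreated and 2.70 ± 0.20 at 9 hr in WT cells. Between genotypes, none of the 35 of these genes tested at 0 and 1 hr (Lbp was below the filter) or of the 36 tested at 3 hr was called. At 0, 1 and 3 hr 0.741%, 0.976% and 1.81% of all genes were called higher, and 0.565%, 0.938% and 1.87% lower. At 6 hr Hsp90b1 (0.22 ± 0.06) and Peli2 (0.37 ± 0.08) were higher in Cpeb4-/- cells and 6 genes were lower, where 6.4% of all genes were higher and 9.92% lower, the largest differences being those of Cd180 (-0.39 ± 0.12) and Pik3ap1 (-0.35 ± 0.08). The other 4 were Ly86 (-0.32), Ikbke (-0.26), Tlr4 (-0.24) and Ripk1 (-0.15). At 9 hr Peli2 was higher (0.86 ± 0.12, adjusted p = 0.0032) and Ly86 (-0.35 ± 0.08), Tnip1 (-0.26 ± 0.06) and Ikbke (-0.25 ± 0.05) were lower, beside 4.69% and 3.22% of all genes. Peli2 was also the 1 gene of the 35 tested whose genotype difference at 9 hr departed from that at 0 hr (0.65 ± 0.15, adjusted p = 0.014). In that test 0.992% of all genes were called higher and 0.771% lower.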

How the data were processed

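The deposited table held rlog values (log2 scale) for 40 libraries and no value column was left out. Per the labels and the study's methods, the authors aligned 50-base reads to mm10 with STAR 2.3.0e, counted them per gene with featureCounts and made the rlog values with DESeq2, so the authors' counts were not analysed here. Libraries were grouped by genotype and time from their titles. limma 3.58.1 (R 4.3.3, eBayes with trend) compared times within each genotype over its 20 libraries and genotypes at each time over 8 libraries, and a fit of all 40 tested whether genotype differences changed from 0 hr. Genes needed a mean rlog of at least 2.32, the log2 of 5 counts. Scripts were tested on simulated data. Same-numbered libraries came from 1 mouse, and their deviations from group means correlated at a median of 0.29 over 80 pairs of times (68 of them over 0.1), beside -0.09 between mice; the main fits carry no block. The study tested genotypes at each time. It also compared sets of mRNAs by their WT levels over time, scaled to 6 hr or to the peak. Its RNA-seq methods describe no test of single genes between times like those used here. Genotypes share no mouse. Members, pathway genes and markers were chosen with earlier results of these data known. All 10 members were named, with Tlr4, Lbp and Irak1, the 3 largest called rises and falls among pathway genes in WT at 3 and 9 hr, up to 2 per direction between genotypes at each time, and the gene most correlated with each member; the other 4 pathway genes lower at 6 hr and the third at 9 hr were named after their values were seen. Alternatives were other filters, no trend, batch as a covariate, quantile normalisation, mouse as a block, 1 fit of 40 libraries and leaving out each mouse. Figures used matplotlib.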

Additional observations from a re-analysis of the deposited data

Results flagged for a closer look

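Among 100 groups of 4 mice (10 members, 5 times and 2 genotypes), 3 had 1 mouse far from the other 3, where chance alone marks about 1 group in 20. All were untreated Cpeb4-/- groups. Cd14 was at 14.97 in mouse 55 and at 14.73 to 14.75 in the others. Ticam2 was at 9.59 in mouse 55 and at 9.72 to 9.75 in the others. Ticam1 was at 9.69 in mouse 3 and at 9.56 to 9.58 in the others. Without mouse 55 the untreated Cd14 difference between genotypes was -0.38.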

How the results depend on the processing

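In the comparisons of times the number of members called stayed within 1.5 times its value under every alternative run. Of 2670 values of single members under 16 alternatives, 2526 stayed on their side of the threshold, in the same direction or, where uncalled, moved by at most 1 SE. A call was lost by 68 and gained by 59, 14 uncalled values moved by over 1 SE, and 59 uncalled values changed sign. Quantile normalisation turned 3 values: Irak3 in WT from 6 to 9 hr became 0.21, Irak2 in Cpeb4-/- from 1 to 3 hr became -0.018, and Cd14 in Cpeb4-/- from 6 to 9 hr became 0.015, the last 2 of them no longer called. The cause was not tested. It also moved the split of all genes called from 3121 higher and 2627 lower to 2447 and 3978 in Cpeb4-/- cells at 1 hr, and from 118 and 267 to 102 and 125 in the change of genotype difference at 6 hr. The 6 hr rises of Cd14 and Myd88 in Cpeb4-/- cells became 0.50 and 1.11. The numbers of members called between genotypes were less stable. Leaving out 1 mouse gave 0 to 1 members at 0 hr, 0 to 3 at 1 hr, 0 to 3 at 3 hr, 1 to 3 at 6 hr and 0 to 6 at 9 hr. Calls over all genes moved as well. They ran from 44 to 163 at 0 hr, 40 to 2440 at 1 hr and 76 to 2584 at 3 hr. At 6 hr they ran from 1347 to 2331, and at 9 hr from 387 to 4575. With no filter the numbers of members were 0, 0, 0, 2 and 0 at 0, 1, 3, 6 and 9 hr, and with a mean rlog of at least 5 it was 4 at 6 hr. Over all genes the calls with no filter were 50, 53, 167, 1288 and 582 of 20784. With a mean rlog of at least 5 they were 2159 of 10909 at 6 hr. Without the trend 0 were called at 0 and 3 hr and 1 at 9 hr, with batch as a covariate 0 at 3 hr, and after quantile normalisation 0 at 3 hr and 1 at 9 hr. In the same order, calls over all genes were 124, 230 and 700, then 194, then 441 and 919. A fit of all 40 libraries called 5, 2 and 3 members at 1, 3 and 6 hr, and with the replicate block, the mouse as a random effect, 2, 5, 2, 4 and 4 at the 5 times. Without the block that fit called 4182, 1311 and 2039 of 13103 genes at 1, 3 and 6 hr. With it the calls were 414, 4323, 1393, 2137 and 2378 at the 5 times. The main fits called 171, 251, 481, 2129 and 1029 genes. With the mouse as a fixed block, 1 member, Irak2, was called in the change of genotype difference at 9 hr. Over all genes 654 of 13103 were called there, in place of 231. The block changed no other call of a member than those given beside the results, and it ended none. The unknown depth and the shrinkage of rlog values limit what can be said of small differences.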
